A study of Mus musculus with 12 samples.

Results

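V6.5 mouse embryonic stem cells that lack Mettl14 (Mettl14 -/-, KO) were compared with their wild-type counterpart (WT), both heated at 42 °C for 30 min and then returned to 37 °C for 1 h, called recovery. The comparison uses 4 of the 12 libraries of the series, 2 KO and 2 WT, taken by the genotype and treatment in their labels, a rule that uses no measured value. The other 8 libraries, 2 per genotype without heat (noHS) and 2 per genotype taken at the end of the heating (HS), serve here for strand classes, for the spread and for setting the recovery values beside those of the earlier conditions. All cells grew on gelatin, in medium with LIF, the GSK3 inhibitor CHIR99021 and the MEK1 inhibitor PD0325901. Whether the KO line is 1 clone is not given in the sources used here. The series' design calls the 2 libraries of a group biological replicates.

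Mettl14 is the partner of the catalytic subunit Mettl3 in the complex that writes N6-methyladenosine, the most common internal mark of mRNA, and it helps that complex hold its RNA. Heat shock makes cells hold back the translation of most mRNAs while chaperone mRNAs are translated, and translation of the others returns during recovery. Ribosome profiling reads out the stretches of RNA covered by a ribosome after nuclease digestion, and its counts therefore depend on mRNA abundance as well as on translation. The mRNA level itself was not analysed here. In bulk samples such as these, fewer ribosomes per copy, fewer copies, fewer cells and less RNA per cell cannot be told apart.

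The recovery libraries differed in how much of each one was informative. WT recovery replicates 1 and 2 held 1795185 and 1117253 reads, and KO recovery replicates 1 and 2 held 1778481 and 679360. Of these reads 125342 and 81002 were assigned to a transcript in the WT, but 22514 and 8569 in the KO. The assigned share was thus 7.12% ± 0.190 (SD, n = 2) for WT libraries and 1.26% ± 0.00324 (SD, n = 2) for KO libraries, with no overlap. Reads in overlapping transcripts, which are left unassigned as ambiguous, made up 9.31% and 10.7% of the WT reads and 1.40% and 1.45% of the KO reads. In the 8 noHS and HS libraries the assigned share ran from 2.20% to 8.75%. With 2 libraries against 2, an exact two-sided permutation test has 6 permutations and cannot give a p below 0.333. That was its p for this measure (0.4 after adjustment over 6 library measures).

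Most of the missing assigned counts belonged to a few transcripts. The transcript uc009vev.1 was the largest in all 4 recovery libraries, with 64.4% ± 13.5 (SD, n = 2) of the assigned counts of WT libraries and 18.2% ± 2.67 (SD, n = 2) of those of KO libraries. On its own strand it received 45627 ± 8374 cpm (counts per 1000000 reads of the library, mapped or not) in WT recovery and 2044 ± 166 in KO recovery (SD, n = 2 each). Together with uc009vew.1, uc008spx.1 and uc012hdk.1 it forms a set of 4 whose share exceeded 10% of the counts of at least 1 library. On the strand that held most of their counts, which is the antisense strand for uc012hdk.1 and the sense strand for the others, they were 22.4 to 29.8 times higher in WT than in KO recovery. The antisense counts of uc012hdk.1 nearly equalled the sense counts of uc009vew.1, at 150184 and 149174 in WT recovery replicate 1 and 5561 and 5580 in KO recovery replicate 1. These 2 may hold largely the same reads, which was not tested, so their falls are not taken as separate. The KO recovery values of all 4 lay below the lowest of the 8 noHS and HS libraries, which was 10776 for uc009vev.1 and 455.5 for uc008spx.1. KO minus WT in assigned share was −5.85 percentage points with these 4 transcripts and −0.805 without them. Assigned share rests on either-strand counts, so this change comes mostly from uc009vev.1 and uc008spx.1. In WT recovery replicate 1 those 2 had 51632 and 6209 either-strand cpm, against 226.2 for uc009vew.1 and 777.6 for uc012hdk.1. All 4 transcripts are left out of the library measures and sums that follow.

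KO recovery libraries held a smaller share of sense counts than WT recovery libraries. Sense counts are those on a transcript's own strand, where footprints of ribosomes on its mRNA lie. The sense share was 61.5% in WT recovery replicate 1 (95% Wilson interval 60.9% to 62.2%) and 76.9% in replicate 2 (76.4% to 77.4%). It was 44.6% in KO recovery replicate 1 (43.9% to 45.3%) and 37.0% in replicate 2 (35.9% to 38.1%). The intervals cover counting error alone, since amplified reads are not independent molecules. The groups did not overlap, with means of 69.2% ± 10.9 and 40.8% ± 5.41 (SD, n = 2 each; exact permutation p = 0.333, the smallest possible). For comparison, the means were 70.2% ± 10.8 and 68.9% ± 0.661 in WT and KO noHS, and 53.7% ± 4.57 and 48.7% ± 5.44 in WT and KO HS (SD, n = 2 each).

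To see which transcripts carried this difference, transcripts were classed by strand from the 8 noHS and HS libraries alone, so that no recovery library entered the class. Of 418 transcripts with at least 50 stranded counts there, 282 had at least 80% of them on the sense strand (sense-strand transcripts), 108 at least 80% on the other strand (antisense-strand transcripts), and 28 were mixed. Outside the 4 largest transcripts 279, 107 and 28 remained. Sense-strand transcripts received 4963 and 9934 sense cpm in WT recovery replicates 1 and 2, and 2854 and 2039 in KO recovery replicates 1 and 2. Antisense-strand transcripts received 3467 and 4036 antisense cpm in the WT, and 4242 and 4771 in the KO. The KO libraries were thus the lower ones for sense-strand and the higher ones for antisense-strand transcripts, with no overlap in either class. Each difference in recovery had an exact permutation p = 0.333, which is the smallest possible. The higher antisense level in the KO was not particular to recovery. In HS antisense-strand transcripts received 3389 and 4078 antisense cpm in the WT and 4380 and 4241 in the KO, also without overlap. In noHS the genotypes overlapped, at 3700 and 2788 in the WT and 3206 and 4501 in the KO.

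**Figure D1:**
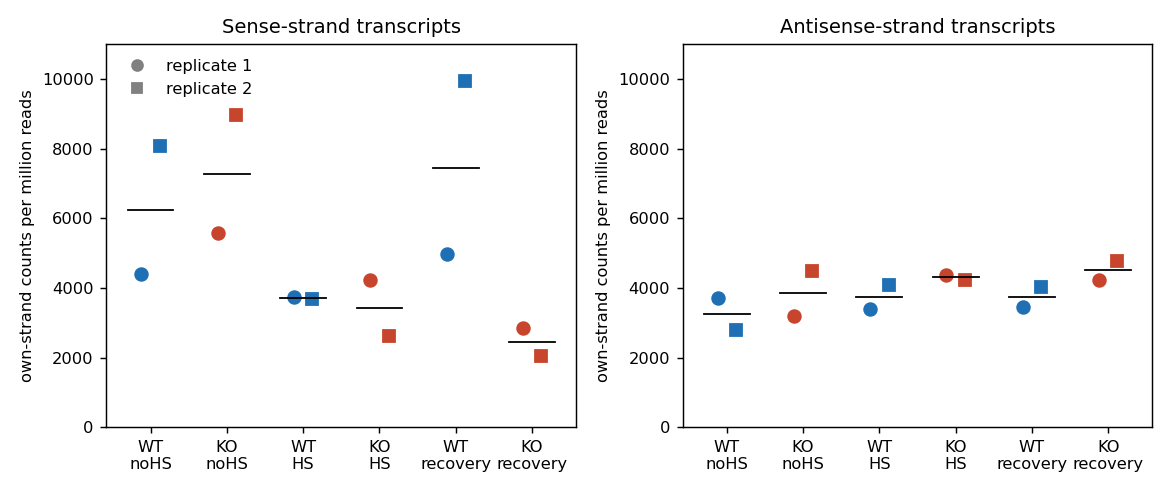
Summed own-strand cpm of 279 sense-strand transcripts (left) and 107 antisense-strand transcripts (right) in the 12 libraries; blue is WT, red is KO, a circle is replicate 1, a square is replicate 2 and the line is the group mean. The KO recovery libraries, at 2854 and 2039, are below both WT recovery libraries on the left, and at 4242 and 4771 above both on the right.

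Transcript by transcript the same split appeared. For each transcript the KO recovery counts were pooled, divided by the reads of those libraries and set against the WT, with 0 to 2 pooled counts set at a floor of 3, which is 1.22 cpm in the KO and 1.03 in the WT. The median log2 ratio, KO over WT, was −1.84 (quartiles −2.87 and −0.15) for the sense-strand transcripts, of which 278 had a ratio. It was 0.53 (quartiles −0.05 and 0.98) for antisense-strand transcripts and −0.76 over the 409 of all 414 classed transcripts that had a ratio. The gap of −2.38 between the medians of the sense-strand and antisense-strand classes does not depend on how libraries are scaled, whereas the sign for antisense-strand transcripts does. Their median was −0.07 with TMM (edgeR's trimmed mean scaling) and positive with scaling to all reads, to reads mapped once and with DESeq2 size factors (0.43). The sense-strand median stayed negative under TMM (−2.45), DESeq2 size factors (−1.95) and reads mapped once (−1.17).

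Both KO libraries lay below both WT libraries for 140 of the 279 sense-strand transcripts, and above both for 23. Among all 414 classed transcripts the shares were 38.9% below and 16.2% above. Among antisense-strand transcripts 11 of 107 were below and 41 above, against 16 and 18 in noHS and 12 and 36 in HS. In noHS the same count was 101 of 279 sense-strand transcripts below and 31 above, and in HS 29 below and 51 above, from libraries that recovery does not share. Over all 414 classed transcripts the shares were 30% below and 13% above in noHS, and 10.6% below and 23.9% above in HS. The median log2 ratio of sense-strand transcripts was −0.50 in noHS and 0.06 in HS. Transcripts at least 8-fold lower in the KO numbered 66 in recovery, 4 in noHS and 6 in HS.

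The size of the sense-strand difference depended on the WT library. Against WT recovery replicate 1 the median log2 ratio of the pooled KO libraries was −0.45 over 203 transcripts with a ratio, and against replicate 2 it was −2.87 over 276. With KO recovery replicate 1 left out, the median over both WT libraries was −0.40, and with replicate 2 left out −1.40. These medians are bounded by the floor of 3 counts, which is 4.42 cpm in KO recovery replicate 2 alone and 1.69 in replicate 1 alone. In KO recovery replicates 2 and 1, 160 and 111 of the 279 transcripts had no count. The value of −0.40 therefore does not show a smaller fall in KO recovery replicate 2. The WT recovery replicates had a Spearman correlation of 0.382 across the 279 transcripts, which share library depth and are not independent replicates. With the 4 HS libraries of both genotypes the correlation ran from 0.670 to 0.809 for WT recovery replicate 1 and from 0.199 to 0.296 for replicate 2. With the 4 noHS libraries it ran from 0.0905 to 0.635 for WT recovery replicate 1 and from 0.546 to 0.674 for replicate 2. The higher noHS values of WT recovery replicate 1, 0.574 and 0.635, were with KO noHS replicates 1 and 2. The KO recovery replicates correlated at 0.754 with each other, at 0.503 to 0.725 with the 4 HS libraries of both genotypes, and at 0.675 and 0.581 with WT recovery replicate 1.

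With sense counts scaled to all reads of a library, 111 of 504 transcripts were lower in KO than in WT recovery and 0 were higher (edgeR quasi-likelihood test in a fit of 12 libraries, Benjamini-Hochberg adjusted p below 0.05), which is 22% of those tested. At an unadjusted p below 0.05 there were 247, of which 2 were higher in the KO, and the DESeq2 Wald test called 101 lower and 1 higher. By class, the 111 comprised 93 of 278 tested sense-strand transcripts (33.5%), while 5 were mixed among 13, and 13 had too few counts for a class among 208. In all, 69 of the 111 had no count in either KO recovery library, and 23 had 3 or more. Their median log2 ratio with the floor of 3 counts was −3.34 (quartiles −4.31 and −2.69). It was −2.13 against WT recovery replicate 1, over 83 with a ratio, and −4.36 against replicate 2, over all 111. Both KO libraries were below both WT libraries for 99, and at least 4-fold below each WT library, with KO counts pooled, for 43. The low assigned share and sense share of the KO recovery libraries moved with this result, and their part in it was not tested. The fitted median of all log2 fold changes was −4.97 with this scaling and −2.04 with TMM. The count of 111 was 466 without WT recovery replicate 1, 28 without WT recovery replicate 2, 11 without KO recovery replicate 1, 8 without KO recovery replicate 2, and 61 and 62 without KO noHS replicates 1 and 2.

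**Figure D2:**
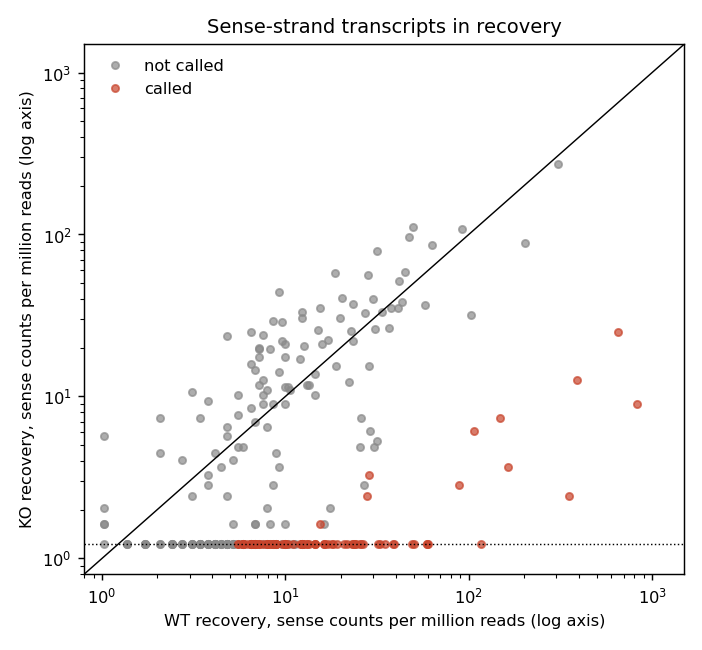
Sense cpm of 279 sense-strand transcripts, WT recovery (x) against KO recovery (y), pooled over 2 libraries each, on log axes; values under 3 counts are drawn at the floor, which is the dotted line for the KO, and the solid line marks equal levels. The 90 red transcripts passed the test and lie far below the line, many at the floor, while the others lie on both sides of it.

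Outside the largest transcripts, each of the 108 called transcripts had a count in every noHS library, but 18 and 56 had none in WT HS replicates 1 and 2 and 13 and 46 none in KO HS replicates 1 and 2. Of all 279 sense-strand transcripts, 52 and 108 had none in WT HS replicates 1 and 2, and 32 and 109 none in KO HS replicates 1 and 2. Zeros under heat were thus common in the class as a whole, and they also depend on depth. WT and KO HS replicates 2 held 889066 and 897660 reads, against 2084034 and 1945449 in replicates 1. The 108 summed to 2419 and 5983 sense cpm in WT noHS and to 4130 and 8566 in KO noHS. They summed to 2698 and 1049 in WT HS and to 1863 and 636.1 in KO HS. In recovery, where they were chosen for their difference, they summed to 3644 and 9698 in the WT and to 151.8 and 101.6 in the KO. The KO recovery sums were therefore below the lowest of the 8 other libraries, 636.1 in KO HS replicate 2. The 189 sense-strand transcripts that were not called summed to 2751 and 1972 cpm in KO recovery and 2209 and 3407 in WT recovery, inside the range of 1603 to 3385 of the 8 other libraries except for WT recovery replicate 2. This set was defined by the same test in recovery, so its steadier sum there is also partly by choice. Its median transcript was at 3.34 and 10.7 cpm in WT recovery replicates 1 and 2, and at 3.37 and 1.47 in KO recovery replicates 1 and 2. The median log2 ratio of the 111, KO over WT, was −0.93 in noHS and −0.30 in HS, over 111 and 84 with a ratio.

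**Figure D3:**
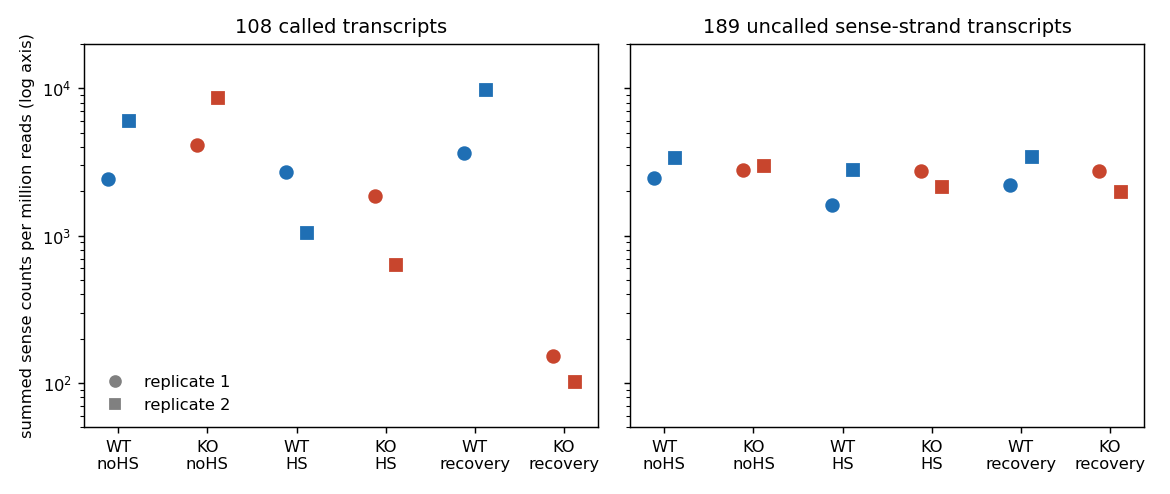
Summed sense cpm (log axis) in the 12 libraries for 108 transcripts called lower in KO recovery (left) and 189 sense-strand transcripts that were not called (right); blue is WT, red is KO, a circle is replicate 1 and a square replicate 2. The called set falls to 151.8 and 101.6 in KO recovery, by its choice, and is at 636.1 or more in the other libraries. The uncalled set, defined by the same test, stays between 1603 and 3407.

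With fewer than 3 KO counts set at 3, the largest pooled change outside the 4 largest transcripts was that of uc009val.1, a sense-strand transcript. It had 442 and 583 sense counts in WT recovery replicates 1 and 2 and 5 and 1 in KO recovery replicates 1 and 2. Scaled to reads these were 246.2 and 521.8 cpm in the WT and 2.81 and 1.47 in the KO, 384 ± 195 against 2.14 ± 0.947 (SD, n = 2 each). The groups were far apart, with a WT over KO ratio of 144 (95% Clopper-Pearson interval for counting error 66 to 394) and a fitted log2 fold change of −7.35 (SE 1.43, edgeR adjusted p = 0.00124). In the other KO libraries it was not low throughout, at 422.5 and 198.8 cpm in KO noHS and 493.5 and 11.1 in KO HS. The ratio was 213.8 and 101 without WT recovery replicates 1 and 2, and 125 without KO recovery replicate 2. Without KO recovery replicate 1 a single KO count was left, and with that count set at the floor of 3 the ratio was 79.7.

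The next was uc009vfb.1, which the 8 earlier libraries class as mixed. It had 162 and 264 sense counts in the WT and 1 and 0 in the KO. With the single KO count set at the floor of 3, WT over KO was 119.8. Taken as 1 count it gave 359.5, for which counting error alone allowed 64.2 to 14233 (edgeR adjusted p = 0.00057). In cpm it was at 50.9 and 73.1 in WT noHS and 76.3 and 217 in KO noHS. It was between 1.13 and 17.8 in the 4 HS libraries, with overlap of the genotypes. The WT recovery libraries, at 90.2 and 236.3, were above both WT noHS libraries, and both KO recovery libraries were below every other library. Against WT HS replicate 2, which also held a count of 1, that order rests on values under the floor of 3 counts. With the floor, the ratio was 193.6 and 73.9 without WT recovery replicates 1 and 2 and 86.7 without KO recovery replicate 2. Without KO recovery replicate 1, which held the one count, it was at least 33.1-fold.

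No transcript passed the threshold in the other direction with this scaling. The lowest p among transcripts with both KO libraries above both WT libraries belonged to uc007blv.2, with 22 and 5 sense counts in WT recovery and 32 and 76 in KO recovery. This is 12.3 and 4.48 cpm in the WT and 18 and 111.9 in the KO, a ratio of 4.74 (95% counting interval 3.08 to 7.52). In the 8 noHS and HS libraries it ran from 5.59 cpm (KO noHS replicate 2) to 31.5 (WT HS replicate 2). Of the KO recovery libraries, replicate 2 alone was above that range. The transcript missed the threshold (log2 fold change 2.91, SE 1.13, edgeR adjusted p = 0.0538). It passed with scaling to reads mapped once (edgeR adjusted p = 0.0435), in the DESeq2 Wald test (adjusted p = 0.0354) and without WT recovery replicate 1 (edgeR adjusted p = 0.0302), and its ratio was 1.94 without KO recovery replicate 2, 12.1 without KO recovery replicate 1 and 9.82 with WT recovery replicate 2 as the sole WT library. The next, uc007fgb.1, had 11 and 14 counts in the WT and 37 and 35 in the KO (log2 fold change 1.95, SE 1.08, edgeR adjusted p = 0.133). Its either-strand count was 0 in WT and KO noHS and HS, where its sense counts ran from 5 to 61.

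**Figure D4:**
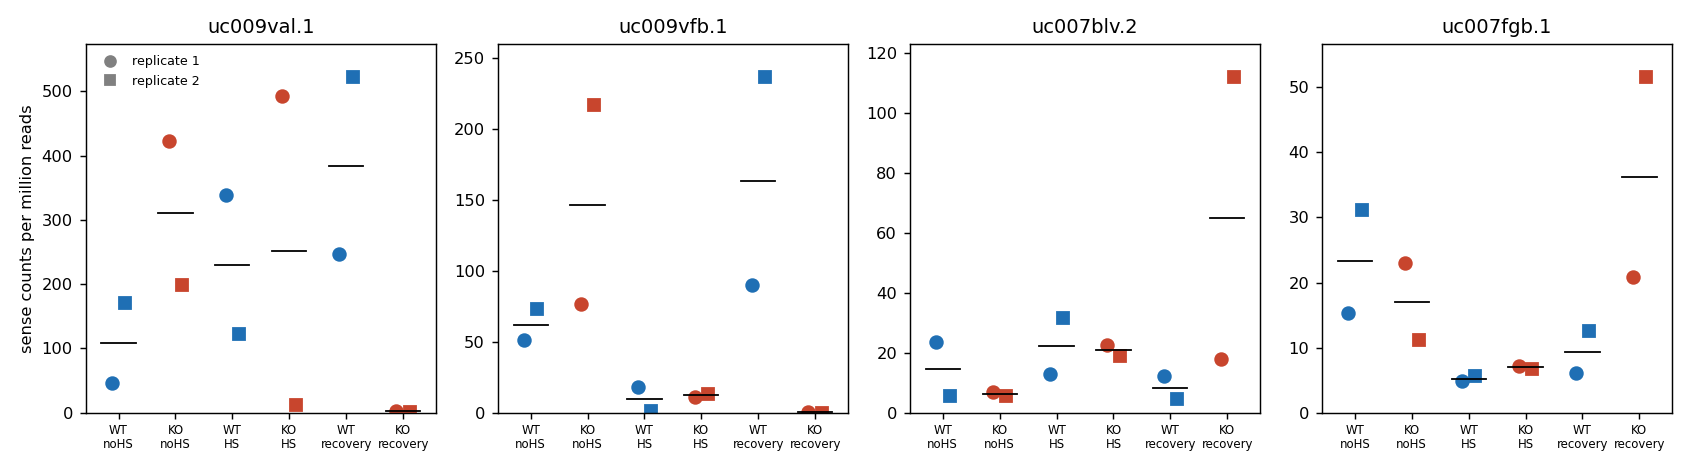
Sense cpm of 4 transcripts in the 12 libraries, each on its own axis from 0; blue is WT, red is KO, a circle is replicate 1, a square is replicate 2 and the line is the group mean. The transcripts uc009val.1 and uc009vfb.1 are near 0 in KO recovery and at 90.2 to 521.8 in WT recovery, and uc007blv.2 and uc007fgb.1, which missed the threshold, are highest in KO recovery replicate 2.

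The either-strand counts, scaled by TMM, gave the same direction. The edgeR test placed 151 of 618 transcripts lower in the KO and 0 higher at an adjusted p below 0.05, a share of 24.4%. At an unadjusted p below 0.05 there were 225, of which 8 were higher, and DESeq2 called 96 lower and 1 higher. The 151 held 108 of 253 sense-strand, 3 of 96 antisense-strand and 7 of 26 mixed transcripts. TMM left the fitted median of all 618 log2 fold changes at −0.68, and scaling to all reads moved it to −3.23 and the count to 55, all lower. The 2 transcripts with the largest change were again uc009val.1 (edgeR adjusted p = 0.00625) and uc009vfb.1 (edgeR adjusted p = 0.0041), and without KO recovery replicate 2 both missed the threshold (edgeR adjusted p = 0.139). In the other direction the lowest p-values without overlap were those of uc008kdt.1, with 0 and 0 counts in the WT and 6 and 2 in the KO, and uc007ggd.2, an antisense-strand transcript with 1 and 2 counts in the WT and 10 and 18 in the KO. Both missed the threshold (edgeR adjusted p = 0.0564 and 0.0844), and both passed with DESeq2 size factors in edgeR (adjusted p = 0.0481 and 0.0478). The count of 151 was 251 without WT recovery replicate 1, 43 without WT recovery replicate 2, 10 and 0 when KO recovery replicate 1 or 2 was left out, and 56 without WT noHS replicate 2.

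Among sense-strand transcripts alone, with sense counts and TMM computed within the class, edgeR found 128 of 277 lower in the KO and 0 higher at an adjusted p below 0.05, a share of 46.2%. At an unadjusted p below 0.05 there were 148, of which 1 was higher, and DESeq2 called 39 lower and 6 higher. Scaled to all reads in place of TMM, the class gave 56 lower and 0 higher. Of the 128, 93 were also among the 111 called with sense counts per library reads (72.7% of the 128 and 83.8% of the 111), and 83 transcripts were called in all 3 fits. The lists share the same 4 recovery libraries, so this overlap is no independent check. The count of 128 was 44 without WT recovery replicate 2, 1 and 0 when KO recovery replicate 1 or 2 was left out, and 83 and 32 without WT noHS replicates 1 and 2.

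How a transcript had responded to heat in the WT went with how it differed in recovery. The 279 sense-strand transcripts were ordered by the ratio of WT HS to WT noHS, which uses no recovery library, and cut into 4 heat groups of about equal size. In group 1, most lowered by heat (log2 ratio −6.45 to −3.51), the median log2 ratio of KO to WT recovery was −2.72, and 68 of 70 transcripts were at least 2-fold lower in the KO. In group 2 the median was −1.87, in group 3 −0.49 and in group 4, least lowered or raised by heat, −0.04. Of the 140 transcripts in groups 1 and 2, 89 and 112 had no count in KO recovery replicates 1 and 2. In groups 3 and 4 this held for 22 and 48 of 139. Where the KO is at the floor, the ratio depends on the WT level alone, so the medians of groups 1 and 2 are bounded. Both KO libraries were below both WT libraries for 41 of 70, 42 of 70, 34 of 69 and 23 of 70 transcripts in groups 1 to 4. The share was 50.2% over all 279 sense-strand transcripts and 38.9% over all classed transcripts. Ordered by the heat response of the KO in place of the WT, the lowest and highest groups had medians of −2.65 and 0.41.

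The most heat-lowered group lay within the range of the WT noHS libraries in WT recovery replicate 2 but far below it in replicate 1. Its transcripts summed to 1191 and 2300 sense cpm in WT noHS and to 47.5 and 39.4 in WT HS. In recovery the sums were 142.6 and 1814 in WT replicates 1 and 2, and 45.5 and 25 in KO replicates 1 and 2. Both KO recovery sums lay within or below the range of the 4 HS libraries, in which KO replicates had 98.7 and 33.4. Against WT recovery replicate 1 the group's median log2 ratio was −0.87, over 32 transcripts with a ratio, and against replicate 2 it was −3.94, over 70.

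**Figure D5:**
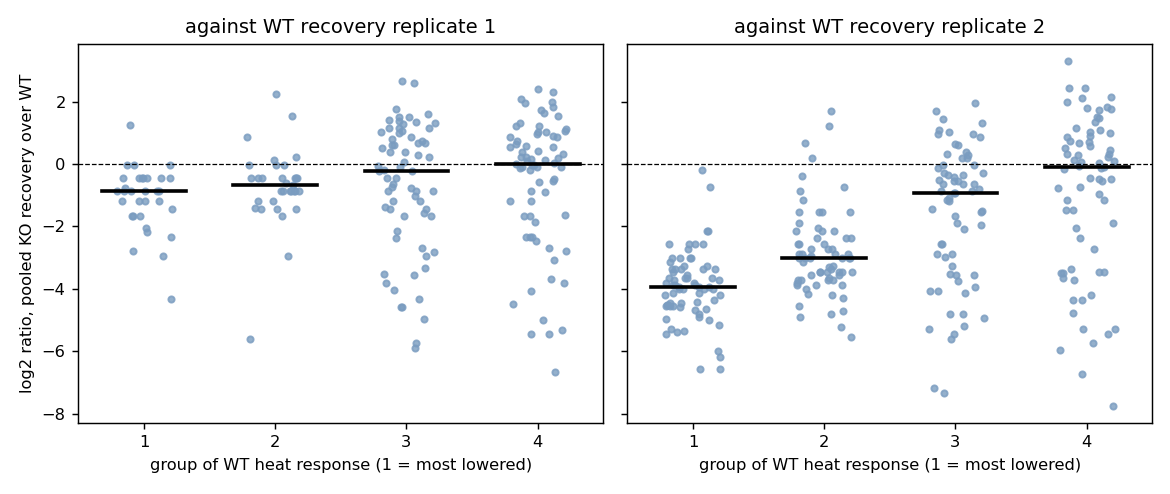
Log2 ratio of pooled KO recovery to WT recovery replicate 1 (left) and replicate 2 (right) for sense-strand transcripts, by group of the WT response to heat; each point is a transcript with at least 3 counts on 1 side, the bar is the median and the dashed line is equality. The medians of group 1 are −0.87 and −3.94 and those of group 4 are 0.01 and −0.11, where a low tail remains against both WT libraries.

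Among the 139 transcripts of groups 3 and 4, whose log2 ratio under heat ran from −1.74 to 3.43 in the WT, levels in KO recovery ranged from above the WT to far below it. Of these, 25 were at least 2-fold higher than in the WT, 61 within 2-fold, 21 from 2-fold to 8-fold lower and 32 at least 8-fold lower. The limit of 8-fold was chosen after the values were seen. The log2 ratios nearest to it were −3.03 inside and −2.65 outside. The 32 transcripts summed to 2465 and 4612 sense cpm in WT recovery, 93.9 and 48.6 in KO recovery, 2002 and 822 in WT HS and 1281 and 401 in KO HS. Against WT recovery replicates 1 and 2 their median log2 ratios were −3.75 and −4.78, which describes the choice. The other 107, from which the lowest ratios had thereby been taken, summed to 1771 and 2221 in WT recovery and to 2452 and 1805 in KO recovery. In noHS the median log2 ratio of the 32, KO over WT, was 0.68 and in HS −1.35. The number at least 8-fold lower was 36 and 21 without WT recovery replicates 1 and 2, 13 and 22 without KO recovery replicates 1 and 2, and 21 with scaling to reads mapped once. Without KO recovery replicate 1 the KO floor was 4.42 cpm, so an 8-fold ratio needed a higher WT level.

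The transcript IDs are the one property known of these transcripts apart from counts. Of the 32, 20 had IDs that begin with uc011 or uc012 (62.5%), against 9 of the other 107 transcripts of groups 3 and 4 (8.41%) and 3 of the 140 in groups 1 and 2 (2.14%). What these ID series stand for is not given in the sources used here, and the pattern was noticed in the data, so no test is given. Among the 54 sense-strand transcripts at 20 or more sense cpm over the 8 noHS and HS libraries, where a ratio of 8 can be measured, 19 were within 2-fold of the WT in recovery, 8 were 2 to 8-fold lower, 21 at least 8-fold lower and 6 at least 2-fold higher. At the same levels 0 were at least 8-fold lower in noHS and 3 in HS.

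The difference between genotypes in recovery was tested against that in the earlier conditions with sense counts per library reads. In noHS 0 of 504 transcripts passed (edgeR, 9 at an unadjusted p below 0.05), and in HS 1 passed (0.198%), lower in the KO, with 24 at an unadjusted p below 0.05. Relative to the difference in noHS, edgeR found 30 of 504 (5.95%) lower in the KO and 0 higher at an adjusted p below 0.05. At an unadjusted p below 0.05 there were 99, of which 3 were higher, and DESeq2 called 33 lower and 1 higher. Relative to HS, 33 (6.55%) were lower and 1 (0.198%) higher, 6.75% in all. The count against HS was 0 without the 2 libraries under 20000 assigned counts (WT HS replicate 2 and KO recovery replicate 2), and 0 with only the HS and recovery libraries in the fit. Of these lists of 30 and 34, 29 and 32 were among the 111 called in recovery, with which they share the recovery libraries, or 26.1% and 28.8% of the 111. The count of 30 was 83 without WT recovery replicate 1, 12 and 13 when KO recovery replicate 1 or 2 was left out, 13 without WT noHS replicate 1 and 16 without KO noHS replicate 2. The count of 34 was 116 and 4 without WT recovery replicates 1 and 2, 7 and 12 without KO recovery replicates 1 and 2, 12 without WT HS replicate 2 and 6 without KO HS replicate 1.

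The ranges of KO and WT overlapped in how many transcripts were detected. At a fixed depth of 7000 either-strand counts, WT recovery replicates 1 and 2 showed 1674 and 2225 transcripts and KO recovery replicates 1 and 2 showed 1661 and 1769 (exact permutation p = 0.667). KO minus WT was −234 transcripts, and 41.5 without WT recovery replicate 2. With sense counts at a depth of 2000 it was −6.69.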

How the data were processed

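The authors deposited raw counts, 1 table per library with 61396 transcript IDs, per the file layout in STAR's form: counts on either strand, in the sense direction and in the antisense direction. STAR, DESeq2 and mm10 are named, with no version or role, in the submitters' processing notes; annotation and read filters: not given in the sources used here. The 4 lines of unassigned reads (92.8% to 98.7% of a recovery library's reads) stayed out of counts but are part of all reads. Overlapping transcripts lose reads to the ambiguous class, and either-strand counts do not tell sense from antisense. Since 0 IDs could be matched to the RefSeq gene table, transcripts go by ID and no sequence is shown; gene lists and cell markers were not analysed, and the genotype labels were not checked against Mettl14.

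Transcripts were kept by filterByExpr (minimum count 10) and tested with edgeR 4.0.16 (R 4.3.3) in 1 fit of all 12 libraries, 1 mean for each of 6 groups; DESeq2 1.42.0 was an alternative. The fits were also run on simulated counts with the same spread for every transcript and changes in both directions. That setting lacks the mostly downward difference seen here, so it does not test the fits under it. At most 2 transcripts per direction were named: adjusted p below 0.05, at least 30 counts in recovery, no overlap of genotypes, largest pooled change, or else the lowest p. A floor of 3 counts is 0.00112% to 0.0463% of a recovery library's sense counts. The comparison, classes and rules were chosen with earlier results of these data known.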

Additional observations from a re-analysis of the deposited data

Results flagged for a closer look

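The difference between genotypes was other in recovery than in noHS for 30 of 504 transcripts, all lower in the KO, and other than in HS for 34, of which 33 were lower (edgeR, sense counts per library reads, adjusted p below 0.05). The 34 became 0 without WT HS replicate 2 and KO recovery replicate 2 together, and 0 with only the HS and recovery libraries in the fit. These results are listed because the difference itself passed a test. For uc009vfb.1 the adjusted p was 0.00121 against noHS and 0.00655 against HS (edgeR). Its sense counts were 73 and 143 in WT noHS, 143 and 426 in KO noHS, 162 and 264 in WT recovery, and 1 and 0 in KO recovery. For uc009val.1 the adjusted p was 0.00174 against noHS (edgeR). It had 66 and 335 counts in WT noHS and 792 and 391 in KO noHS, and so was higher in the KO on average there and lower in recovery. For uc008vaw.1 the adjusted p was 0.00655 against HS (edgeR), with 75 and 10 counts in WT HS, 218 and 35 in KO HS, 323 and 154 in WT recovery and 6 and 3 in KO recovery. In the other direction uc033gjx.1 had an adjusted p of 0.0264 against HS (edgeR). Its 148 counts in WT HS replicate 2 stood against 13 in replicate 1, and it had 9 and 0 in KO HS, 14 and 8 in WT recovery and 54 and 5 in KO recovery.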

How the results depend on the processing

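In each of the fits that called any transcript, more were lower than higher in the KO, but the counts moved. For either-strand counts (151), they were 55 after scaling by all reads, 24 when low counts were kept, 26 with only the recovery libraries in the fit, 97 in DESeq2 and 30 without the 2 libraries under 20000 assigned counts (WT HS 2 and KO recovery 2), called shallow here. For sense counts per library reads (111), they were 204 with TMM, 51 with reads mapped once, 55 with either-strand counts, 32 with no filter, 32 with only the recovery libraries, 27 without both shallow libraries and, chosen after seeing the data, 7 with antisense counts. For sense-strand transcripts (128), they were 56 with all reads, 49 with DESeq2 size factors in edgeR, 83 with either-strand counts, 14 with only the recovery libraries, 45 in DESeq2 and 32 without both shallow libraries. With a replicate block these 3 counts were 50, 69 and 64, and those of the tests against noHS and HS 29 and 33. Same-numbered KO and WT recovery libraries deviated together at r = 0.054, and pairs of the 6 groups at −0.333 to 0.224. These values show no pairing by number, but with 2 libraries per group they cannot exclude it. Against noHS (30) the count was 57 with TMM, 15 with no filter and 19 without both shallow libraries; against HS (34) it was 62, 9 and 0, 14 from either-strand counts and 0 when the fit held only WT and KO of HS and recovery.

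Leaving out 1 of the 12 libraries gave 0 to 251, 8 to 466, 0 to 155, 12 to 83 and 4 to 116 calls in these 5 tests; a lone library was then taken to vary like the other groups, and more transcripts passed the filter. Leaving out 1 recovery library moved KO minus WT between −36.1 and −20.7 points of sense share, −5.99 and −5.72 points of assigned share, −7488 and −2516 sense and 470.7 and 1039 antisense cpm, −509.6 and 41.5 transcripts detected, and −55.7 and −36.7 points for the largest transcript. It moved the median log2 ratio of sense-strand transcripts between −2.87 and −0.40, of heat group 1 between −3.94 and −0.87 and of group 4 between −0.18 and 0.01, and the count of 32 in groups 3 and 4 between 13 and 36. The −0.40 and the 13 came without KO recovery replicate 1, where the KO floor was 4.42 cpm. With the 4 largest transcripts kept, these differences were −12.9 points, −133774 sense counts, −78500 antisense counts and 770 transcripts, and −0.805 points of assigned share without them. With scaling to reads mapped once they were −10876 sense and 10132 antisense counts, and group 4's median became 0.63 and the 32 became 21. With groups from the KO heat response that median was 0.41. The alternatives for the medians and the count of 32 were chosen after seeing the data. The cause of these changes was not tested.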
